A study of Mus musculus with 12 samples.

Results

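The MEF2 transcription factor family has 4 genes in the mouse, Mef2a, Mef2b, Mef2c and Mef2d, and all 4 were found by gene symbol among the 52962 genes of 12 libraries made from mouse rod photoreceptors. The family was chosen to set Mef2d, the member known for its work in photoreceptors, against Mef2c, which is also a microglial gene. Earlier values of Mef2c in pcDNA4c mCsnk2a1, pcDNA4c Control and shRNA Control were known at that choice. Comparisons among those groups are therefore described without a test. Tests are given for shRNA mCsnk2a1 against shRNA Control. The control side of that comparison was also known for Mef2c, so the knockdown p-values of Mef2c and of its ratio to Mef2d are not independent of the choice.

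The series asked how protein kinase CK2, whose alpha catalytic subunit is encoded by Csnk2a1, bears on the gene expression that the rod factor NRL drives. Retinas were electroporated with plasmid DNA and taken at postnatal day 8, and GFP-positive rods were picked by hand, with 50 to 100 cells in each library. The sources used here give neither the promoter that drives GFP nor the strain and sex of the mice. The groups were shRNA mCsnk2a1 (a short hairpin RNA against mouse Csnk2a1), shRNA Control, pcDNA4c mCsnk2a1 (the expression vector pcDNA4c with mouse Csnk2a1) and pcDNA4c Control, with 3 RNA samples each. Below, "knockdown" and "overexpression" name what each Csnk2a1 construct was meant to do. The labels call the samples independent but do not say that they came from separate animals, so the p-values below measure only how far these samples spread.

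MEF2 proteins bind A/T-rich DNA through a MADS box and the MEF2 domain beside it. Class IIa histone deacetylases hold them in a repressed state, and calcium signals through CaM kinases and calcineurin, or the p38 and ERK5 kinases, release or activate them. In photoreceptors MEF2D is known to act with the homeobox factor CRX at enhancers of photoreceptor genes. Mef2c has been described as a target of NRL in rods, and it is also expressed in microglia and in endothelium. CK2 has been described to phosphorylate MEF2C, a change of the protein that RNA levels do not show.

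After the DNA-binding region, MEF2 transcripts carry 1 of a pair of mutually exclusive exons, α1 or α2, and may carry the short exon β. The α2 transcript of Mef2d differed between groups in the data given below, so both exons are printed here, with β. The sequences are those of the GENCODE M21 transcripts on GRCm38, on the plus strand of chromosome 3. Capitals in α1 and α2 mark the bases identical between them in a global alignment, and β is in lower case throughout.
Mef2d α1, chr3:88158034-88158171: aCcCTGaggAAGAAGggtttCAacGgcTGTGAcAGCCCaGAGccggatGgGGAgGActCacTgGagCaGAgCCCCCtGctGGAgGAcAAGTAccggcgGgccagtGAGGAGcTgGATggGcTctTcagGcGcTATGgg
Mef2d α2, chr3:88158221-88158355: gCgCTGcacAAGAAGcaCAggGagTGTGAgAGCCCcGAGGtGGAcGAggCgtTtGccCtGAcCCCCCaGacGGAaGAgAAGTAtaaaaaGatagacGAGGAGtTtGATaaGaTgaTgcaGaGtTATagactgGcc
Mef2d β, chr3:88161781-88161801: actgaggaccatttagatctg
Of the 138 bases of α1 and the 135 of α2, 74 were identical, which is 53.6% of α1 and 54.8% of α2. Identical and differing bases alternated along both exons.

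The 12 libraries held 1608926 to 3567121 estimated counts each, and 16164 to 25326 genes with a count. Depth was higher without overlap in shRNA mCsnk2a1 (from 2840426) than in shRNA Control (up to 1856775). The same held for pcDNA4c mCsnk2a1 (from 2296056) against pcDNA4c Control (up to 2017623). Genes with a count were fewer in pcDNA4c mCsnk2a1 (up to 18782) than in pcDNA4c Control (from 22688). The part of depth in the differences below was not tested. A count of 3 in a library corresponds to 0.923 to 1.79 CPM, the floor used here, where CPM is the estimated count relative to the size of the library. Levels are CPM after edgeR's TMM scaling between libraries, and the edgeR fit covered 20267 genes, all 4 members among them. All 20 rod markers, from rhodopsin to Nrl, had a count in each of the 12 libraries, with summed levels of 17431 to 21175 CPM in shRNA mCsnk2a1, 9276 to 11694 in shRNA Control, 8563 to 18342 in pcDNA4c mCsnk2a1 and 9239 to 11243 in pcDNA4c Control. The targeted gene Csnk2a1 ranged over 12.0 to 36.0 CPM in shRNA mCsnk2a1 and 8.51 to 66.9 CPM in shRNA Control. It ranged over 49.9 to 145 CPM in pcDNA4c mCsnk2a1 and 25 to 86.6 CPM in pcDNA4c Control, so the groups overlapped in both arms.

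Mef2d (ENSMUSG00000001419) lies on the plus strand of chromosome 3, from 88142372 to 88172086 on GRCm38. Its last 531 bases overlap the antisense gene 1700113A16Rik, and whether the counting used strand is not stated. Mef2d was measured at 122, 193 and 264 CPM in shRNA mCsnk2a1, against 452, 107 and 132 CPM in shRNA Control. The highest and the lowest of these 6 values both belonged to shRNA Control, and the groups overlapped. On the log2 scale Mef2d differed by -0.26 with a standard error (SE) of 0.53 (edgeR adjusted p = 0.999, two-sided exact permutation p = 0.9), with a mean of 193 ± 70.7 CPM in shRNA mCsnk2a1 and 230 ± 192 CPM in shRNA Control (SD, n = 3). The sign turned to 0.68 without shRNA Control 1, the library at 452 CPM. In bulk samples such as these, fewer cells of a type and less RNA per cell cannot be told apart.

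With the Csnk2a1 vector Mef2d was measured at 388, 593 and 339 CPM in pcDNA4c mCsnk2a1, against 293, 170 and 252 CPM in pcDNA4c Control. All 3 vector libraries lay above the 3 control libraries, and the ratio of the means was 1.85. The log2 difference was 0.88, with 440 ± 135 CPM in pcDNA4c mCsnk2a1 and 238 ± 62.7 CPM in pcDNA4c Control (SD, n = 3). Groups that did not overlap in this higher direction were found for 3.73% of all genes tested, and in either direction for 15.5%. Between the control groups the Mef2d difference, shRNA Control minus pcDNA4c Control, was -0.05, and it moved to -1 without shRNA Control 1.

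The next member in order of level, Mef2a (ENSMUSG00000030557), is a broadly expressed activator in the brain and muscle. It lies on the minus strand of chromosome 7, from 67231163 to 67372858, and shares 76168 bases with Lysmd4 on the other strand. Mef2a was measured at 151, 52.3 and 165 CPM in shRNA mCsnk2a1, against 52.4, 63.7 and 104 CPM in shRNA Control. Of the knockdown libraries 2 lay above all control libraries and 1 lay below them, so the groups overlapped. Mef2a differed by 0.74 on the log2 scale, with an SE of 0.61 (edgeR adjusted p = 0.859, exact permutation p = 0.4). Mef2a was at 130, 52 and 105 CPM in pcDNA4c mCsnk2a1, against 216, 178 and 111 CPM in pcDNA4c Control, a log2 difference of -0.81 with groups that overlapped. Set against pcDNA4c Control, shRNA Control was lower by 1.20 on the log2 scale, with no overlap. The share of all genes that were lower without overlap between these control groups was 8.56%, and 13.7% did not overlap in either direction, while 0.0691% passed in the edgeR fit.

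Mef2b (ENSMUSG00000079033), the smallest and most divergent member and known mainly from B cells, was near the limit of detection. It lies on chromosome 8, from 70139711 to 70167488, and shares 7609 bases with Borcs8 on the same strand. Mef2b was measured at 12.4, 0 and 0 CPM in shRNA mCsnk2a1, and at 5.19, 0 and 0 CPM in shRNA Control. It was measured at 7, 15 and 16.4 CPM in pcDNA4c mCsnk2a1, and at 7.87, 0 and 0 CPM in pcDNA4c Control. All 3 libraries of pcDNA4c mCsnk2a1 thus had a count, where each of the other groups had 1 library with a count. The lowest of the 3 was under the highest control library, so the overexpression groups overlapped, and the fitted log2 difference of 2.26 depends on libraries at 0. With knockdown the fitted difference was 1.22 with an SE of 2.59 (edgeR adjusted p = 0.999, exact permutation p = 1).

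Mef2b reads came from different annotated transcripts in different libraries. Mef2b-205, whose first exon lies inside Borcs8, gave 4.54 TPM (transcript abundance per length, relative to all transcripts of the library) in shRNA mCsnk2a1 1 and 2.63 in pcDNA4c Control 1. Mef2b-201 gave 6.38 and 7.03 TPM in pcDNA4c mCsnk2a1 2 and 3, and Mef2b-203 gave 3.17 TPM in pcDNA4c mCsnk2a1 1 and 2.77 in shRNA Control 1. The split between Mef2b and Borcs8 is therefore uncertain for the first of these transcripts.

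Mef2c (ENSMUSG00000005583), on the plus strand of chromosome 13 from 83504034 to 83667080, varied most. It was measured at 119, 1.85 and 12.5 CPM in shRNA mCsnk2a1, against 6.22, 2.98 and 7.37 CPM in shRNA Control. A single knockdown library stood far above the other 5, and the groups overlapped. The log2 difference was 2.99 (SE 1.28, unadjusted p = 0.0308, edgeR adjusted p = 0.598; exact permutation p = 0.4), and it was 0.37 without shRNA mCsnk2a1 1. In the edgeR fit 0% of all genes passed with knockdown, and 8.33% had an unadjusted p under 0.05.

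Mef2c was at 4.37, 0 and 0.671 CPM in pcDNA4c mCsnk2a1, against 287, 83.5 and 137 CPM in pcDNA4c Control. Of the vector libraries 2 were under the floor of 3 counts. The means were 1.68 ± 2.36 CPM in pcDNA4c mCsnk2a1 and 169 ± 106 CPM in pcDNA4c Control (SD, n = 3), so Mef2c was 101-fold lower in the vector group by the ratio of means. The share of genes lower without overlap in this comparison was 11.8%. Set against the same control libraries, Mef2c was 30.6-fold lower in shRNA Control, at 5.52 ± 2.28 CPM. The overexpression and control vector differences share the 3 pcDNA4c Control libraries, which were high in both.

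**Figure D1:**
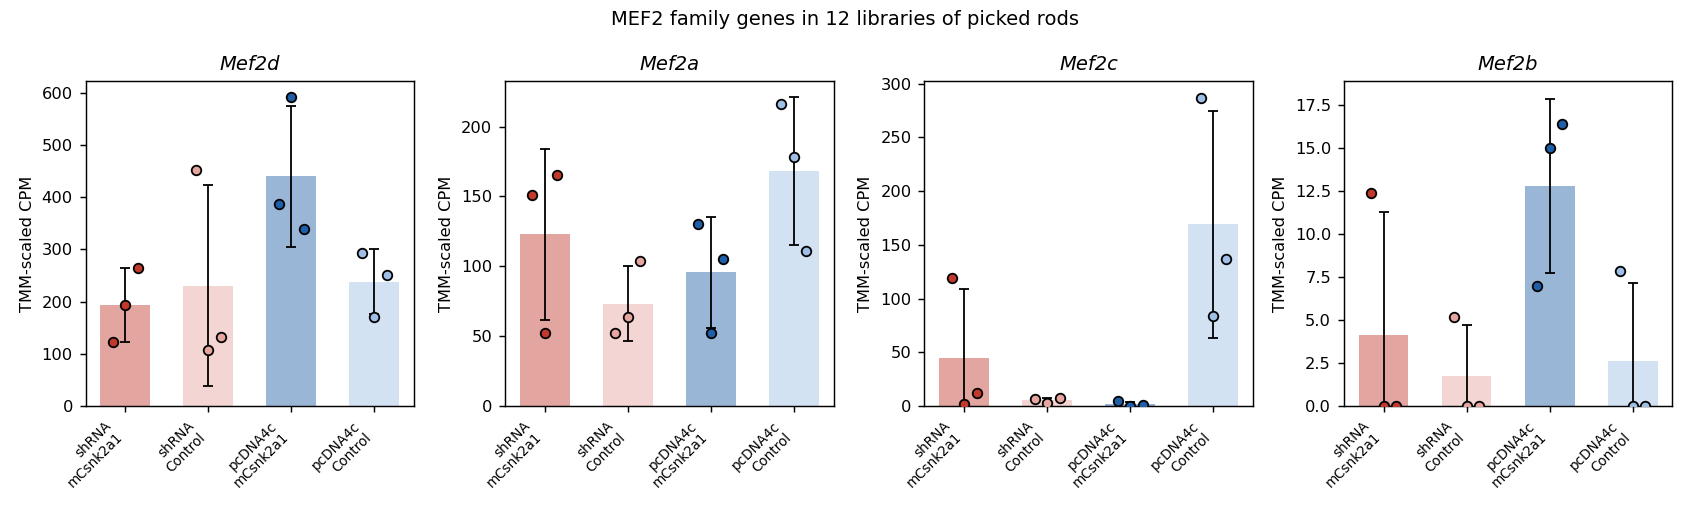
TMM-scaled CPM (vertical axes, each from 0) of the 4 MEF2 genes in 4 groups of 3 libraries; points are libraries, bars are group means and error bars are SD. Mef2d lies between 107 and 593 CPM in all 12 libraries, while Mef2c is at 119 CPM in shRNA mCsnk2a1 1, 83.5 to 287 CPM in the 3 pcDNA4c Control libraries and at most 12.5 CPM in the others.

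The levels of different genes can be compared per length, as TPM summed over the transcripts of a gene. On that scale Mef2d was the highest member in each of the 12 libraries. In shRNA mCsnk2a1 the gene-level means were 38.9 ± 14.9 TPM for Mef2d, 17.3 ± 8.46 for Mef2a, 6.15 ± 8.91 for Mef2c and 1.54 ± 2.66 for Mef2b (SD, n = 3). In shRNA Control they were 60.8 ± 51.3 TPM for Mef2d, 13.6 ± 4.63 for Mef2a, 1.01 ± 0.414 for Mef2c and 0.923 ± 1.60 for Mef2b. Mef2d and Mef2a did not overlap in shRNA Control but did in shRNA mCsnk2a1, where their ranges met at 23.4 and 23.7 TPM, and Mef2c and Mef2b overlapped in both groups. In pcDNA4c mCsnk2a1 the order was Mef2d at 98.4 ± 29.1 TPM, Mef2a at 15.3 ± 6.64, Mef2b at 5.53 ± 2.07 and Mef2c at 0.268 ± 0.392. In pcDNA4c Control Mef2c averaged 21.1 ± 12.8 TPM and Mef2a 20.7 ± 6.01, below Mef2d at 41.7 ± 11.1 and above Mef2b at 0.877 ± 1.52. There Mef2c overlapped with Mef2a and also, at 10.3 to 35.2 against 29.1 to 50.1 TPM, with Mef2d. Mef2b thus exceeded Mef2c without overlap in pcDNA4c mCsnk2a1, and the reverse held in pcDNA4c Control. Counting transcripts annotated as protein-coding alone, Mef2c exceeded Mef2d in pcDNA4c Control 1, at 34.9 against 31.1 TPM. Most of this Mef2c lay in short transcripts, Mef2c-207 at 17.4 TPM and Mef2c-221 at 11.8 TPM. Their coding lengths are 387 and 87 bases, against 1518 to 1542 bases for the coding Mef2d transcripts.

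All 7 annotated Mef2d transcripts had a value above 0 in some library, and 2 of them, Mef2d-201 and Mef2d-203, in all 12. Mef2d-201, of 5401 nucleotides with α1 and without β, gave 12.8, 10.7 and 10.9 TPM in pcDNA4c mCsnk2a1, against 5.85, 4.16 and 5.01 TPM in pcDNA4c Control. These groups did not overlap, with means of 11.5 ± 1.16 TPM and 5.01 ± 0.845 TPM (SD, n = 3). The share of all transcripts that separated in this way was not computed. Among genes tested, 3.73% were higher without overlap in this arm. Mef2d-203, which holds α1 and β, ranged over 15.1 to 21.1 TPM in shRNA mCsnk2a1, 2.78 to 24.6 in shRNA Control, 6.80 to 39.7 in pcDNA4c mCsnk2a1 and 6.98 to 12.8 in pcDNA4c Control. A transcript with β was thus above 0 in every library.

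In 2 of the 3 libraries with the Csnk2a1 vector, most of the Mef2d TPM lay in a transcript without a coding sequence. Mef2d-205, of 502 nucleotides, gave 57.7, 104 and 0 TPM in pcDNA4c mCsnk2a1, against 9.43, 2.59 and 21.8 TPM in pcDNA4c Control. The library without Mef2d-205 had the most Mef2d-203, at 39.7 TPM. Coding Mef2d transcripts summed to 31.5, 26.2 and 63.9 TPM in pcDNA4c mCsnk2a1, against 31.1, 26.5 and 24.0 TPM in pcDNA4c Control, and these groups overlapped. Across all groups the coding means were 33.2 ± 8.85 TPM in shRNA mCsnk2a1, 29.6 ± 8.88 in shRNA Control, 40.5 ± 20.4 in pcDNA4c mCsnk2a1 and 27.2 ± 3.60 in pcDNA4c Control. In shRNA Control 1, the library that set the high end of Mef2d at the gene level, Mef2d-205 gave 50.2 TPM and Mef2d-206, also without a coding sequence, 32.6 TPM, while its coding transcripts gave 37.3 TPM. The libraries were made from total RNA, and kallisto divides reads that fit several transcripts by estimation, so the value of a short transcript carries that error as well.

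Exon α2, described as the muscle-typical choice of Mef2d, was found in 1 group. Mef2d-202, the annotated transcript that holds it, was listed at 0 in all 9 libraries of the other groups and gave 5.83, 7.48 and 6.54 TPM in pcDNA4c Control. Of the Mef2d transcripts with an α exon it made up 18.7%, 28.2% and 27.2% in the 3 pcDNA4c Control libraries. Of the transcripts above 0 in all 3 libraries of a group, the share listed at 0 in all 9 others was 0.254% for shRNA mCsnk2a1, 0.443% for shRNA Control, 0.143% for pcDNA4c mCsnk2a1 and 1.78% (346 of 19413) for pcDNA4c Control. TPM values keep no depth and a listed 0 may be a failed estimate, so no test or fold is given. The microglia markers described below were highest in the same 3 libraries, and their part in the α2 transcript was not tested.

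**Figure D2:**
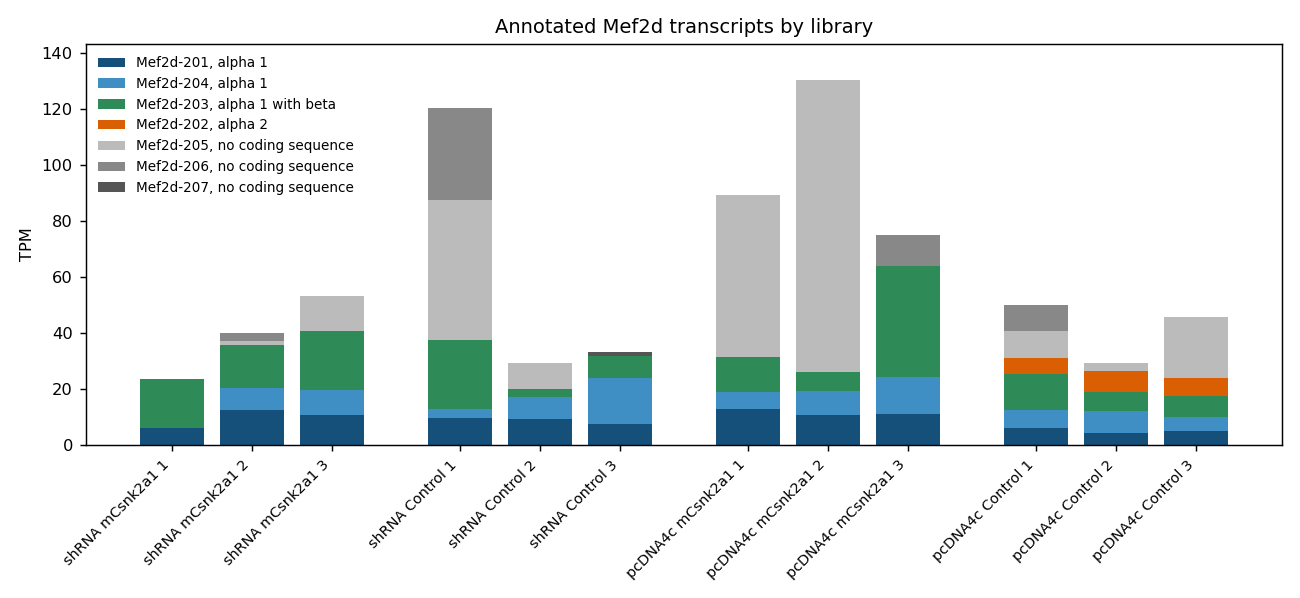
TPM (vertical axis, from 0) of the 7 annotated Mef2d transcripts, stacked for each of the 12 libraries. The α2 transcript Mef2d-202 appears in the 3 pcDNA4c Control libraries at 5.83 to 7.48 TPM, and the tallest bar, pcDNA4c mCsnk2a1 2, is mostly Mef2d-205 at 104 TPM.

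Of the 12 Mef2a transcripts all had a value above 0 in some library, and 1 of them in all 12, the retained-intron transcript Mef2a-207, at 0.09 to 6.20 TPM. Protein-coding transcripts made up 33.8% to 97.1% of Mef2a TPM by library. The coding Mef2a means were 12.1 ± 9.54 TPM in shRNA mCsnk2a1, 5.53 ± 1.84 in shRNA Control, 9.73 ± 4.24 in pcDNA4c mCsnk2a1 and 13.2 ± 5.99 in pcDNA4c Control (SD, n = 3).

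Mef2c has 31 annotated transcripts, of which 16 had a value above 0 in some library and 0 in all 12. Their starts fall into an upstream class of 6 transcripts (83504034 to 83504240), a middle class of 11 (83523473 to 83524920) with 1 more at 83530138, a downstream class of 10 (83572348 to 83575677) and 3 internal starts. In shRNA mCsnk2a1 1 the upstream class gave 12.5 TPM, all of it the 363-nucleotide Mef2c-221, and the middle class 3.82 TPM, all of it the retained-intron Mef2c-226. The upstream, middle and downstream classes gave 12.5, 17.4 and 5.22 TPM in pcDNA4c Control 1, of which Mef2c-221 made up 11.8. In pcDNA4c Control 2 they gave 0, 1.92 and 8.35 TPM, and in pcDNA4c Control 3 they gave 0, 16.7 and 1.23 TPM. The middle class, counted with the start at 83530138, thus led in pcDNA4c Control 1 and 3, and the downstream class in pcDNA4c Control 2. In pcDNA4c Control 3 the transcript at 83530138, Mef2c-216, gave 12.9 of the 16.7 TPM.

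Because MEF2 proteins bind A/T-rich sites, the promoter windows of the members, 250 bases before to 50 after each RefSeq start (GRCm38.p6), were searched on both strands for the MEF2 consensus, and for TAATCC, a core letter string of CRX sites. The Mef2a window held a MEF2 match, CTAAAAATAG, which begins 2 bases before the start site. Around it, on the minus strand of chromosome 7 (67372836 to 67372875), the sequence reads as follows, with the match in capitals.
Mef2a promoter: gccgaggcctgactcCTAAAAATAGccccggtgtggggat
Any match to the MEF2 consensus was found in 1047 of 32851 promoter windows (3.19%), and TAATCC in 2320 (7.06%). The 10 letters themselves were found in 36 windows (0.11%). They were read from the Mef2a window, so this share does not measure how unusual that window is. None of the 3 was found in the windows of Mef2b, Mef2d or the 3 starts of Mef2c. A match describes the letters only, and these files hold no binding data.

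Mef2c and the markers of microglia and macrophages were both high in 1 group, while in another library Mef2c was high and the marker sum was not. The 25 markers summed to 129, 99.4 and 68.8 CPM in shRNA mCsnk2a1, 168, 199 and 303 in shRNA Control, 199, 158 and 154 in pcDNA4c mCsnk2a1, and 1502, 1608 and 1386 in pcDNA4c Control. Of the 25, 7 to 13 had a count in the libraries of the first 3 groups, and 24, 25 and 25 in pcDNA4c Control. Within that last group Mef2c was lowest, at 83.5 CPM, in pcDNA4c Control 2, which had the highest marker sum. Lyz2, the macrophage lysozyme, was at 0 in all 3 pcDNA4c mCsnk2a1 libraries, against 295, 390 and 337 CPM in pcDNA4c Control, and Mpeg1, the macrophage perforin, was at 0 against 149, 192 and 194 CPM. The part of these cells' RNA in the Mef2c level of pcDNA4c Control was not tested.

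In shRNA mCsnk2a1 1, the other library with high Mef2c, the microglia sum was 129 CPM, below all 3 shRNA Control libraries. Lyz2, Mpeg1, Ctss, Tyrobp, C1qa, Aif1 and Cd68 were at 0 there, while Itgam, an integrin of myeloid cells, was at 51.8 CPM, the leukocyte phosphatase Ptprc at 26.3, the complement gene C1qb at 21.4 and the chemokine receptor Cx3cr1 at 15. The 11 endothelial markers summed to 280, 134 and 237 CPM in shRNA mCsnk2a1, 105, 196 and 285 in shRNA Control, 137, 106 and 117 in pcDNA4c mCsnk2a1, and 249, 115 and 171 in pcDNA4c Control. Cldn5, a tight junction gene of endothelium, was at 0 in all 12 libraries. In shRNA mCsnk2a1 1 the VEGF receptor Kdr was at 213 CPM, Pecam1 at 31.9 and Cdh5 at 0. Kdr was also at 213 CPM in shRNA mCsnk2a1 3, where Mef2c was at 12.5 CPM. The endothelial sum of shRNA Control 3, at 285 CPM, was as high as that of shRNA mCsnk2a1 1, with Mef2c at 7.37 CPM. Endothelial RNA as a source of the 119 CPM of Mef2c was not tested.

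**Figure D3:**
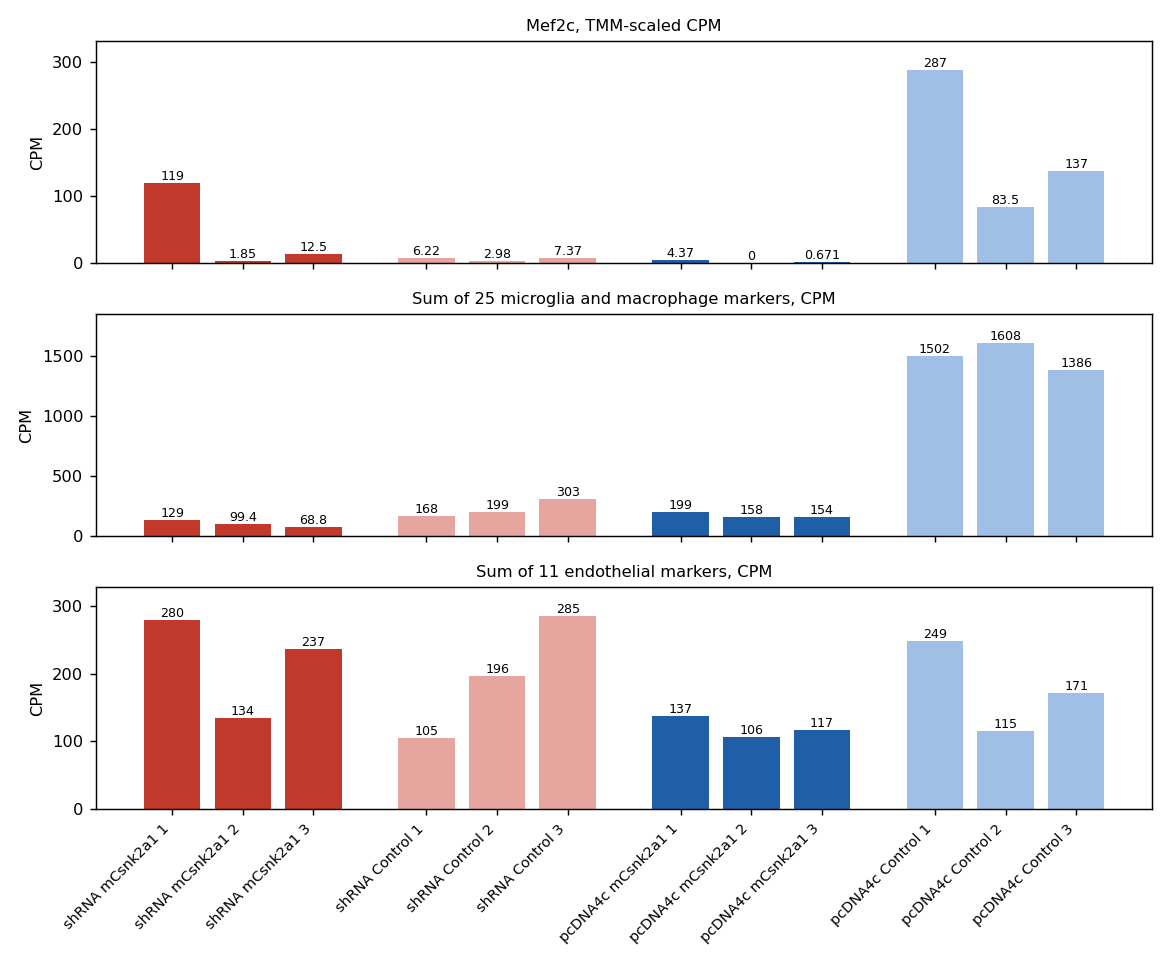
Mef2c (top), the sum of 25 microglia and macrophage markers (middle) and the sum of 11 endothelial markers (bottom), in TMM-scaled CPM from 0, for each of the 12 libraries. Library shRNA mCsnk2a1 1 is high for Mef2c with a microglia sum of 129 CPM, and the pcDNA4c Control libraries are high for both Mef2c and the microglia sum (1386 to 1608 CPM).

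Markers of other retinal and vascular cells were also detected. Müller glia markers summed to 1101 to 1651 CPM in shRNA mCsnk2a1, 564 to 907 in shRNA Control, 660 to 721 in pcDNA4c mCsnk2a1 and 1253 to 1629 in pcDNA4c Control. Without Apoe, a choice made after seeing the data, the other 10 Müller glia markers summed to 856 to 1239 CPM in shRNA mCsnk2a1, 447 to 773 in shRNA Control, 570 to 603 in pcDNA4c mCsnk2a1 and 327 to 475 in pcDNA4c Control. The pcDNA4c mCsnk2a1 libraries thus lay below pcDNA4c Control with Apoe and above it without. Bipolar markers summed to 885 to 1913 CPM in shRNA mCsnk2a1, 489 to 645 in shRNA Control, 803 to 1061 in pcDNA4c mCsnk2a1 and 170 to 293 in pcDNA4c Control. With overexpression 8 of the 11 Müller glia markers were on the higher and 3 on the lower side. The lipid carrier Apoe, which microglia and macrophages also express, was the marker of this list that passed. It was lower by 3.43 on the log2 scale with overexpression (edgeR adjusted p = 0.0025), and 0.0345% of all genes passed as lower. Apoe averaged 101 ± 22.7 CPM in pcDNA4c mCsnk2a1 and 1084 ± 153 CPM in pcDNA4c Control (SD, n = 3). In the other groups it averaged 279 ± 121 CPM in shRNA mCsnk2a1 and 102 ± 42.3 CPM in shRNA Control, so pcDNA4c Control was the group that stood apart. Pericyte markers stayed between 16.5 and 135 CPM, cone markers between 196 and 417, and amacrine, horizontal and ganglion cell markers between 286 and 792. Their part in the MEF2 levels was not tested.

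Within each library Mef2c can be set against Mef2d, as the log2 ratio of TPM with 0.5 added to each. The ratio was -0.50, -5.75 and -4.54 in shRNA mCsnk2a1, against -6.16, -4.83 and -4.21 in shRNA Control. Only shRNA mCsnk2a1 1 stood apart among these 6. The knockdown difference was 1.47 (exact permutation p = 0.5, where the smallest possible with 3 against 3 is 0.1) and turned to -0.08 without that library. The ratio was -6.20, -8.03 and -7.01 in pcDNA4c mCsnk2a1, against -0.50, -1.46 and -1.33 in pcDNA4c Control, a difference of -5.98. Mef2c thus stayed below Mef2d in all 12 libraries on this scale, and pcDNA4c Control and shRNA mCsnk2a1 1 came nearest to equal levels. Between shRNA Control and pcDNA4c Control the difference was -3.97.

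**Figure D4:**
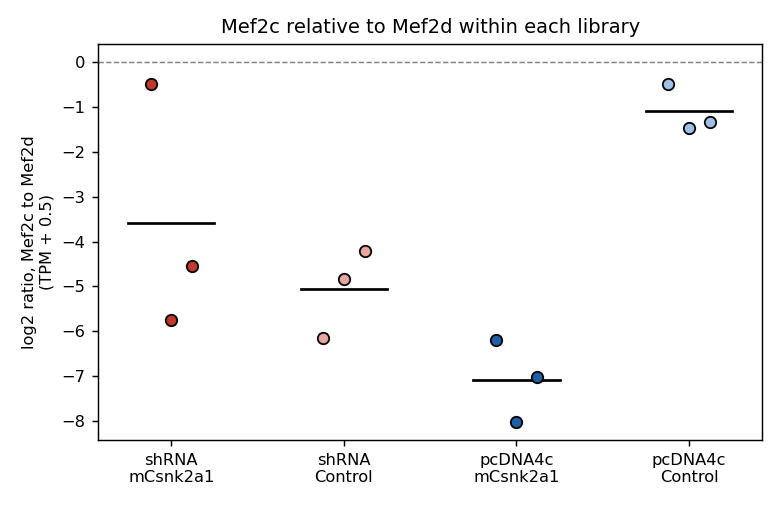
Log2 ratio of Mef2c to Mef2d TPM (0.5 added to each) in each library, by group; points are libraries and bars are group means. Library shRNA mCsnk2a1 1 lies at -0.50, and the pcDNA4c mCsnk2a1 libraries at -8.03 to -6.20 all lie below the pcDNA4c Control libraries at -1.46 to -0.50.

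Across the 12 libraries, Pearson's r of log2 CPM was 0.736 between Mef2a and Mef2c, 0.56 between Mef2b and Mef2d, -0.213 between Mef2a and Mef2d and -0.333 between Mef2c and Mef2d. These are descriptions, since libraries of a group share a treatment and depth differed between groups. Among 11166 genes, the patterns most like Mef2c were those of Rpl12, a ribosomal protein gene (r = 0.934), Gas2l3 (0.928), the extracellular matrix gene Dcn (0.88), the kinase gene Camk2a (0.844) and Usp20 (0.841). Gas2l3 and Dcn were at 126 and 43.2 CPM in shRNA mCsnk2a1 1, the library of high Mef2c. Most like Mef2d were Bloc1s2 (0.93), the splicing factor gene Sfpq (0.897), Hectd4 (0.88), the anion channel gene Lrrc8a (0.855) and the ubiquitin ligase gene Rlim (0.842). Sfpq was at 370, 496 and 339 CPM in pcDNA4c mCsnk2a1, against 236, 298 and 220 CPM in pcDNA4c Control, and it was highest of shRNA Control, at 446 CPM, in the library that was also highest for Mef2d. Sfpq, Gas2l3 and Dcn were picked by their likeness over these same libraries, so their levels are no separate evidence.

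Genes that act with or on MEF2 were read from 4 lists, and 0 genes of any of them passed in the edgeR fit in either arm, where 0% of all genes passed with knockdown and 0.0987% with overexpression. Of 8 class IIa deacetylases and corepressors, which silence MEF2, 6 were on the higher and 2 on the lower side with knockdown (median 0.24), and 3 and 5 with overexpression (median -0.61). Over the 21 alternative settings these medians ranged from 0.04 to 0.49 and from -1.21, with limma voom, to -0.23, without pcDNA4c mCsnk2a1 1. Over all genes tested the median was -0.03 with knockdown and -0.16 with overexpression. The most abundant of them was Ncor1, a nuclear corepressor, at 307 ± 138 CPM in shRNA mCsnk2a1 and 320 ± 152 CPM in shRNA Control. It was at 619 ± 251 CPM in pcDNA4c mCsnk2a1 and 324 ± 122 CPM in pcDNA4c Control (SD, n = 3), with overlap in both arms. Hdac4, a class IIa deacetylase singled out after its values were seen, was below its controls without overlap in both arms. It averaged 13.7 ± 13.7 CPM in shRNA mCsnk2a1 and 130 ± 106 CPM in shRNA Control, which is -3.24 on the log2 scale with an SE of 1.13 (edgeR adjusted p = 0.598). It averaged 10.4 ± 11.6 CPM in pcDNA4c mCsnk2a1 and 77.9 ± 43.4 CPM in pcDNA4c Control, which is -2.89 with an SE of 1.11 (edgeR adjusted p = 0.568). Leaving out 1 library, the Hdac4 difference ranged from -4.36 (without shRNA mCsnk2a1 1) to -2.36 (without shRNA Control 2) with knockdown and from -4.26 (without pcDNA4c mCsnk2a1 2) to -2.29 (without pcDNA4c mCsnk2a1 3) with overexpression. With knockdown 12.3% of all genes had groups that did not overlap. With overexpression the share was 15.5%, and 11.8% in the lower direction. The share of genes that did not overlap in both arms was not computed.

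Of 11 coactivators and DNA-binding partners 10 were on the higher and 1 on the lower side with knockdown (median 0.61), and 3 and 8 with overexpression (median -0.54). The knockdown median rested on 1 library, at -0.01 without shRNA mCsnk2a1 1, and the overexpression median ranged from -0.77 to -0.33 over the alternatives. The acetyltransferase Ep300 averaged 313 ± 181 CPM in shRNA mCsnk2a1 and 217 ± 128 CPM in shRNA Control, and its relative Crebbp 272 ± 160 and 163 ± 40.2 CPM in the same groups, each with overlap. Of 24 kinases and phosphatases 14 were on the higher and 10 on the lower side in each arm, with medians of 0.40 with knockdown and 0.50 with overexpression. The first was 0.02 without shRNA mCsnk2a1 2 and 0.83 without shRNA Control 2, and the second was 0.27 with the replicate block and turned to -0.06 with limma voom. These values set no direction for the list. Camk2a, a kinase of this list that DESeq2 called lower with overexpression, was at 0.437, 0 and 0 CPM in pcDNA4c mCsnk2a1, against 31, 36.5 and 46 CPM in pcDNA4c Control. It could be tested through pcDNA4c Control, the group where it was high, so the call supports nothing. Ppp3ca, the calcineurin catalytic subunit, was higher without overlap with knockdown, at 229 ± 200 CPM in shRNA mCsnk2a1 and 59.7 ± 9.86 CPM in shRNA Control (log2 difference 1.94, SE 0.63, edgeR adjusted p = 0.598). The difference was 0.95 without shRNA mCsnk2a1 1. Ppp3ca was at 140 ± 58.9 CPM in pcDNA4c mCsnk2a1 and 96.7 ± 20 CPM in pcDNA4c Control, with overlap. Camk2d and Sik2, also abundant in this list, differed by 0.12 and -0.35 with knockdown, with overlap. Groups did not overlap with knockdown for 12.3% of all genes.

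Of 15 genes described as MEF2 targets outside the retina 13 were tested, and Klf2 and Myog were too low. With knockdown 7 were on the higher side, 5 on the lower and 1 at no difference (median 0.15), and with overexpression 5 and 8 (median -0.42). The knockdown median was -0.13 without shRNA mCsnk2a1 3, -0.19 with limma voom and 0.42 with a stricter filter (at least 50 counts in at least 3 libraries). The overexpression median was -1.15 with limma voom, 0.07 without pcDNA4c mCsnk2a1 1 and 0.23 with the stricter filter, so neither median set a direction. Pcdh10, a protocadherin described as a neuronal MEF2 target, averaged 145 ± 49.7 CPM in shRNA mCsnk2a1 and 15.2 ± 12.5 CPM in shRNA Control. Its log2 difference was 3.25 (SE 1.00, edgeR adjusted p = 0.598), with no overlap, as for 12.3% of all genes with knockdown. It ranged from 2.70 to 3.89 leaving out 1 library. It passed in 1 of 21 alternative settings, with DESeq2, at the threshold (DESeq2 adjusted p = 0.05 after rounding). DESeq2 called 173 genes with knockdown, among the 20267 genes of the main fit. It was at 25.6 ± 18.5 CPM in pcDNA4c mCsnk2a1 and 21.2 ± 2.63 CPM in pcDNA4c Control. Jun, an immediate early gene, averaged 120 ± 36.7 CPM in shRNA mCsnk2a1 and 81.5 ± 19.6 CPM in shRNA Control, with overlap. Homer1, also abundant in this list, differed by 0.15 with knockdown, with overlap.

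Photoreceptor transcription factors other than MEF2D, its partner CRX among them, formed a list of 11, of which 0 passed in either arm. With knockdown 10 were on the higher and 1 on the lower side (median 0.39), and with overexpression 6 and 5 (median 0.14). The knockdown median ranged from 0.19 to 0.56 over the alternatives. The overexpression median turned to -0.04 without pcDNA4c Control 3 and with the replicate block. Crx, the homeobox partner of MEF2D, averaged 1058 ± 183 CPM in shRNA mCsnk2a1 and 624 ± 92.8 CPM in shRNA Control, without overlap (log2 difference 0.76, SE 0.31, edgeR adjusted p = 0.598). It averaged 805 ± 236 CPM in pcDNA4c mCsnk2a1 and 819 ± 35.1 CPM in pcDNA4c Control. Nr2e3 and Neurod1, also abundant in this list, differed by 0.23 and -0.13 with knockdown, with overlap. Of 5 photoreceptor genes listed here, from general knowledge, as candidates for dependence on Mef2d, 4 were tested and 0 passed, and Guca1b was too low. With knockdown 3 were on the higher and 1 on the lower side (median 0.67), and with overexpression 2 and 2 (median 0). The knockdown median was 0.24 with the stricter filter, 0.40 without shRNA mCsnk2a1 1, 0.35 without shRNA mCsnk2a1 2 and 0.38 without shRNA Control 1. The overexpression median was -0.67 without pcDNA4c mCsnk2a1 2. Mpp4, a scaffold of the photoreceptor synapse, averaged 179 ± 85.1 CPM in shRNA mCsnk2a1 and 88.5 ± 9.08 CPM in shRNA Control, without overlap. Its log2 difference was 1.02 (SE 0.66, edgeR adjusted p = 0.741), and 0.57 to 1.28 leaving out 1 library. Pla2r1 and Elovl2, also abundant in this list, differed by -0.26 and 0.31 with knockdown, with overlap. Groups did not overlap with knockdown for 12.3% of all genes. The rod marker sum was higher without overlap in the same knockdown libraries, and its part in these differences was not tested.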

How the data were processed

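Reads were processed with kallisto 0.45.0 and edgeR 3.28 on mm10, as far as the submitters' processing notes say; their roles are not given. The deposited gene table holds estimated counts, not normalized. The deposited transcript table, titled as counts, holds TPM. Another deposited table gives a library-scaled signal (CPM), read here for 11 libraries, without pcDNA4c mCsnk2a1 1, and served an alternative only. Estimated counts were rounded and filtered (filterByExpr, minimum count 10), scaled by TMM and fitted with edgeR 4.0.16 (quasi-likelihood) in R 4.3.3 over all 12 libraries and 4 groups. The threshold was an adjusted p of 0.05 (Benjamini-Hochberg, over all genes tested). The SE is the size of the fold divided by the square root of the F statistic. The floor of 3 counts covers counting error alone, as reads copied by PCR are not separate molecules. Exons were aligned with Biopython 1.88. Likeness used log2 CPM (prior count 2) of genes with a mean of at least 10 CPM. Alternatives used limma 3.58.1 and DESeq2 1.42.0, other scalings and filters, a replicate block and leaving out each library. Members and lists were chosen with earlier results of these data known. Named were the members, genes past the threshold, the 3 most abundant genes of a list (not all are printed) and the 5 most like Mef2c or Mef2d. A marker gene that passed is not reported here.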

Additional observations from a re-analysis of the deposited data

How the results depend on the processing

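The counts of genes called depended on the tool. With knockdown 0 genes passed, against 93 without a filter, 173 with DESeq2, 2 with limma voom, 5 with limma on the deposited CPM, and 0 to 4 leaving out 1 library. With overexpression 20 passed, against 111, 250, 37 and 48 in the same order, 6 with only the 6 libraries compared, and 14 to 35 leaving out 1 library (35 without pcDNA4c mCsnk2a1 1). Between control groups 14 passed, against 71 without a filter, 69 with DESeq2, 26 with limma on the deposited CPM, and 11 to 20 leaving out 1 library.

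Same-numbered libraries did not deviate together (18 pairs, r from -0.0398 to 0.0359), and 3 of 12 libraries correlated best with their own number. The main fit therefore used no pairing, but such correlations in small noisy samples cannot show that the samples were unpaired. With a replicate block 1 gene passed with knockdown, 26 with overexpression and 18 between control groups. The Mef2b overexpression difference was then 6.93, and the Mef2c knockdown difference 1.56 against 2.99 in the main fit.

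The Mef2a, Mef2c and Mef2d differences kept their sign with overexpression in all alternatives run. Leaving out 1 library, the knockdown differences ranged from 0.47 to 1.1 for Mef2a, from -5.05 to 6.32 for Mef2b, from 0.37 to 3.56 for Mef2c (adjusted p 0.279 to 0.972 over all alternatives) and from -0.62 to 0.68 for Mef2d. Those with overexpression ranged from -8.75 to -6.05 for Mef2c and from 1.68 to 7.96 for Mef2b, and those between control groups from -5.68 to 5.12 for Mef2b and from -1 to 0.31 for Mef2d. With limma voom Mef2b was -0.11 with knockdown and 3.95 with overexpression. The Mef2c to Mef2d ratio with knockdown ranged from -0.08 to 2.55. With overexpression it was -7.48 and -4.41 with 0.1 and 2 added, -7.59 on TMM CPM and -5.21 over coding transcripts, and between control groups -3.06 with 2 added. The causes were not tested. Mef2b was at 0 in 6 of the 12 libraries.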
